A study of Homo sapiens with 6 samples.

Results

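Metallothionein genes were taken as every gene of the deposited RNA-seq table whose symbol is MT2A or MT1 followed by 1 letter. The rule found 4 of 12499 genes, *MT2A*, *MT1E*, *MT1F* and *MT1X*, and all 4 passed the filter on low counts. The libraries came from HaCaT cells, an immortalized human keratinocyte line. Cells were infected for 48 hours with lentivirus carrying *ATF7* (LV-*ATF7*) or with negative control lentivirus (LV-NC), and both groups were then kept in high glucose for 24 hours. Each group had 3 libraries of poly(A) mRNA. The libraries are called replicates in the labels, which do not say whether they came from separate infections, so the p-values measure the spread between these libraries, which may be technical. The comparison asks which mRNAs differed between glucose-treated keratinocytes labelled LV-*ATF7* and those labelled LV-NC.

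Metallothioneins are small, cysteine-rich proteins that bind zinc and copper through the sulfur atoms of their cysteines and also bind toxic metals such as cadmium. The zinc-sensing transcription factor MTF1 switches the genes on by binding metal response elements in their promoters, and glucocorticoids and oxidative stress can also induce them. In skin, metallothioneins are known from the proliferating cells of the basal epidermis and from wound edges. *MT2A* is the form expressed broadly in human cells, and the MT1 genes are a group of close copies that lie beside it.

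The 4 genes lie on the plus strand of chromosome 16 (GRCh38, GENCODE release 29). *MT2A* (ENSG00000125148) is at chr16:56608199-56609497, *MT1E* (ENSG00000169715) at chr16:56625475-56627112, *MT1F* (ENSG00000198417) at chr16:56657694-56660698 and *MT1X* (ENSG00000187193) at chr16:56682424-56684196. They belong to a cluster of 16 annotated metallothionein genes and pseudogenes that spans 119.1 kb. Of these, 11 are protein coding and 5 are pseudogenes. The table had a row for the 4 members and for none of the other 7 coding genes, *MT1A*, *MT1B*, *MT1G*, *MT1H*, *MT1M*, *MT3* and *MT4*, nor for the pseudogenes. The gene with the fewest reads in the table had 51 counts over the 6 libraries, so genes below that were not analysed here.

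The coding sequences are shown because the copies are so alike that reads could be shared among them. Each is the spliced reading frame, start to stop codon, of the principal transcript in GENCODE release 29, which has 3 exons in each gene. The frames run 5′ to 3′ over chr16:56608656-56609354 for *MT2A*, chr16:56625852-56626971 for *MT1E*, chr16:56658059-56659164 for *MT1F* and chr16:56682541-56684049 for *MT1X*, introns removed. Capitals mark bases that differ from *MT2A*.
MT2A: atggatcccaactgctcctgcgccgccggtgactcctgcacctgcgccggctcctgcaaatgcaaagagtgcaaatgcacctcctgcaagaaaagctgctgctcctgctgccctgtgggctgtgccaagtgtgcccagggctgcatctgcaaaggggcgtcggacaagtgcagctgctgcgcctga
MT1E: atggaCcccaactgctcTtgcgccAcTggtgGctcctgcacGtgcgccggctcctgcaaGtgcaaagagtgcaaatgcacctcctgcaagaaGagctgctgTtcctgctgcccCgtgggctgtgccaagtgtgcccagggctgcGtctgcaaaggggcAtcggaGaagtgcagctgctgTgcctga
MT1F: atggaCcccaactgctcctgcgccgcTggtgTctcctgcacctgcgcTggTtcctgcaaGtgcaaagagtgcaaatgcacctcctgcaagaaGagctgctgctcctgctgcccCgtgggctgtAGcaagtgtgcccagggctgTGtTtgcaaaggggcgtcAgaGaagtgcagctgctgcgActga
MT1X: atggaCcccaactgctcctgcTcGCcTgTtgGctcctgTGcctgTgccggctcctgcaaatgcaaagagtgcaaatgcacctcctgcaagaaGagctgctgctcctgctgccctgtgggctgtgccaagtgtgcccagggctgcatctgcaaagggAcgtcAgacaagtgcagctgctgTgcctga
Each frame is 186 bases and holds 61 codons before the stop, 20 of which encode cysteine. *MT1E* and *MT1X* each differed from *MT2A* at 14 bases and *MT1F* at 16. Identity between any pair ran from 88.7% (*MT1F* and *MT1X*) to 92.5% (*MT2A* with *MT1E* or *MT1X*), and the longest identical run was 63 bases, between *MT2A* and *MT1X*. Over the whole principal transcript, 95.1% of the 50-base windows of *MT2A* were found in no other annotated gene, as were 94.7% for *MT1E* and 96.4% for *MT1F*. For *MT1X* the share was 54.9%, because 165 of the 450 bases of its principal transcript (36.7%) also lie in exons of the noncoding gene AC026461.1, on the same strand, and 16.0% of its windows recur in another metallothionein gene. AC026461.1 has no row in the table. How the reads of these shared stretches were counted is not given in the sources used here, so the *MT1X* values are uncertain in a way that the other 3 are not.

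The 6 libraries held 16686472 to 20562768 counts each. *ATF7* itself went against the labels, at 49.8 ± 2.98 CPM, which are counts scaled to a common library size (mean ± SD, n = 3), in the libraries labelled LV-NC and 25.2 ± 3.09 in those labelled LV-*ATF7* (log2 fold change -0.98, SE 0.12; edgeR quasi-likelihood test, Benjamini-Hochberg adjusted p = 1.89e-04). Every direction below is therefore that of the labels. All 12 keratinocyte markers had a row. Of these, 5 were higher, 2 were lower and 5 were not called, with a median log2 fold change of 0.14. Their summed level was 1997 to 2904 CPM in the libraries labelled LV-NC and 6551 to 7107 CPM in those labelled LV-*ATF7*, a rise carried largely by the basal keratin *KRT5*, at 266.4 ± 144.3 and 3354 ± 232.5 CPM. Its partner *KRT14* was at 0.375, 12.5 and 11.3 CPM in LV-NC replicates 1, 2 and 3 and at 1.38 to 1.82 CPM in the libraries labelled LV-*ATF7*, so LV-NC replicate 1 lay below every library of the other group. Of the markers of other cells, 3 of 8 for fibroblasts (35.1 to 42.7 CPM against 17.4 to 21.8), 1 of 5 for melanocytes (1.87 to 2.20 against 3.42 to 6.03) and 1 of 5 for immune cells (1.50 to 1.73 against 7.09 to 9.57) had a row. *PDGFRA*, *MLANA* and *PTPRC* had none. The fibroblast sum was mostly *COL1A1*, which fell from 36.7 ± 4.03 to 16.8 ± 1.93 CPM. The fibroblast marker *DCN* went the other way but was not called (log2 fold change 2.24, edgeR adjusted p = 0.0682). It was at 1.66, 0 and 0 CPM in LV-NC replicates 1, 2 and 3 and at 2.18 to 3.01 CPM in the libraries labelled LV-*ATF7*. The part of these markers in the results was not tested. Of 12462 genes tested, 67.6% differed between the groups at an adjusted p under 0.05, with 34.7% higher and 32.9% lower in the libraries labelled LV-*ATF7*. In 38.0% of genes every library labelled LV-*ATF7* was above every library labelled LV-NC.

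All 4 metallothioneins were higher in the libraries labelled LV-*ATF7*, and in none did the groups overlap. The same call was made for 34.7% of all genes, and the groups were apart in the same direction for 38.0%, so 4 of 4 stands against a background in which such calls were common. The median log2 fold change was 2.39 over the 4 members and 0.00 over all genes tested. Sequencing of bulk RNA cannot tell more metallothionein mRNA per cell from more cells that express it.

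*MT2A*, the most abundant member, had 1366, 2061 and 1824 counts in the libraries labelled LV-NC replicates 1, 2 and 3 and 8500, 9538 and 9007 in those labelled LV-*ATF7*. After scaling for library size and composition these were 73.1, 108.0 and 105.6 CPM against 474.5, 486.2 and 498.1 CPM. The libraries labelled LV-*ATF7* were close to each other and far above the highest library labelled LV-NC, in which group replicate 1 was the lowest. The means were 95.6 ± 19.5 and 486.2 ± 11.8 CPM (SD, n = 3), a 5.09-fold difference (95% interval 3.96 to 6.54). The log2 fold change was 2.35 (SE 0.16; edgeR quasi-likelihood test, adjusted p = 9.44e-06), and 5.83% of all genes rose by more.

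*MT1E*, a neighbouring copy, showed the largest rise of the 4. Its counts were 363, 586 and 527 in the libraries labelled LV-NC and 3550, 3921 and 3668 in those labelled LV-*ATF7*, or 19.4, 30.7 and 30.5 CPM against 198.2, 199.9 and 202.8 CPM. The LV-*ATF7* libraries were nearly level with each other, while LV-NC replicate 1 again stood below replicates 2 and 3. The means of 26.9 ± 6.45 and 200.3 ± 2.37 CPM (SD, n = 3) differed 7.45-fold (95% interval 5.60 to 9.91), with a log2 fold change of 2.90 (SE 0.18; edgeR quasi-likelihood test, adjusted p = 6.74e-06). Only 3.54% of all genes rose by more.

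**Figure D1:**
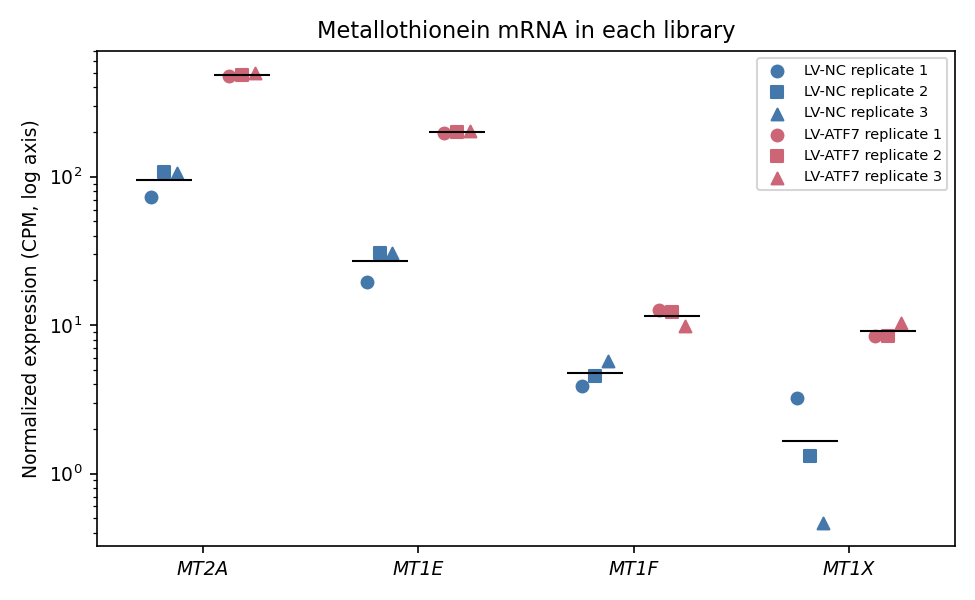
CPM of the 4 metallothioneins (log axis) in each of the 6 libraries, blue for LV-NC and red for LV-*ATF7*, with replicates 1, 2 and 3 as circle, square and triangle and the group mean as a bar. The groups are apart for every gene, and *MT1X* spreads from 0.46 to 3.21 CPM among the libraries labelled LV-NC.

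*MT1F*, another MT1 copy, had far fewer counts and rose least. Its counts were 73, 87 and 99 in the libraries labelled LV-NC and 226, 240 and 178 in those labelled LV-*ATF7*. In CPM these were 3.91, 4.56 and 5.73 against 12.6, 12.2 and 9.84, so the highest LV-NC library remained under the lowest LV-*ATF7* library. The means were 4.73 ± 0.92 and 11.6 ± 1.50 CPM (SD, n = 3), a 2.44-fold difference (95% interval 1.79 to 3.33; log2 fold change 1.29, SE 0.19; edgeR quasi-likelihood test, adjusted p = 5.51e-04). A larger rise was seen in 14.6% of all genes.

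*MT1X* was the least counted member and the most variable. The libraries labelled LV-NC held 60, 25 and 8 counts, with exact 95% Poisson intervals of 45.8 to 77.2, 16.2 to 36.9 and 3.45 to 15.8, and those labelled LV-*ATF7* held 151, 167 and 186. The intervals are on raw counts of libraries of unlike depth. That of LV-NC replicate 1 lay clear of the others, so the spread within that group was larger than the counting error, which is all these intervals cover. Those of LV-NC replicates 2 and 3 nearly met, at 16.2 and 15.8, and whether they stay apart after scaling was not tested. In CPM the values were 3.21, 1.31 and 0.46 against 8.43, 8.51 and 10.3, and the groups remained apart. The means of 1.66 ± 1.41 and 9.08 ± 1.05 CPM (SD, n = 3) differed 5.40-fold (95% interval 2.43 to 12.0; log2 fold change 2.43, SE 0.50; edgeR quasi-likelihood test, adjusted p = 0.00285). The size of this rise depends on which control is used, at a log2 fold change of 3.29 without LV-NC replicate 1 and 1.96 without LV-NC replicate 3.

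LV-NC replicate 1 moved the other way for the remaining members. Its *MT1X* level was 3.62 times the mean of LV-NC replicates 2 and 3, whereas *MT2A* was at 0.685, *MT1E* at 0.635 and *MT1F* at 0.760 of that mean. Across all genes, leaving it out raised the number called from 8429 to 10011. Without it the log2 fold changes were 2.17 for *MT2A*, 2.69 for *MT1E* and 1.15 for *MT1F*, and all 4 members were still called higher, as were 39.9% of all genes in that fit.

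Since reads may be split between copies, the 4 genes were also summed. The family sum was 99.7, 144.6 and 142.3 CPM in the libraries labelled LV-NC and 693.7, 706.8 and 721.0 CPM in those labelled LV-*ATF7*. It rose from 128.9 ± 25.3 to 707.2 ± 13.7 CPM (SD, n = 3), a ratio of 5.49, or 4.93 without LV-NC replicate 1. As a plain share of all counts the family took 0.0109% to 0.0151% of each library labelled LV-NC and 0.0664% to 0.0674% of each labelled LV-*ATF7*.

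The make-up of the family was compared next by an exact permutation test, which with 3 libraries against 3 cannot give a p under 0.10. That test therefore cannot decide whether the make-up differed, and the values are given as a description. The shares are parts of the same sum, so the comparisons are not independent of each other. *MT2A* gave 74.1% ± 0.68 of the metallothionein counts in the libraries labelled LV-NC and 68.8% ± 0.34 in those labelled LV-*ATF7* (SD, n = 3). The share of *MT1E* was 20.7% ± 1.07 against 28.3% ± 0.22, and that of *MT1F* 3.70% ± 0.48 against 1.64% ± 0.24. None of these 3 shares overlapped between groups. The *MT1X* share, 0.325% to 3.22% against 1.20% to 1.43%, did overlap. *MT1E* was counted 0.266 to 0.289 times as often as *MT2A* in the libraries labelled LV-NC and 0.407 to 0.418 times as often in those labelled LV-*ATF7*. Over these 5 comparisons a two-sided exact permutation test gave p = 0.10 for 4 of them, the smallest that 3 libraries against 3 allow (adjusted p = 0.125), and p = 1.0 for the *MT1X* share.

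**Figure D2:**
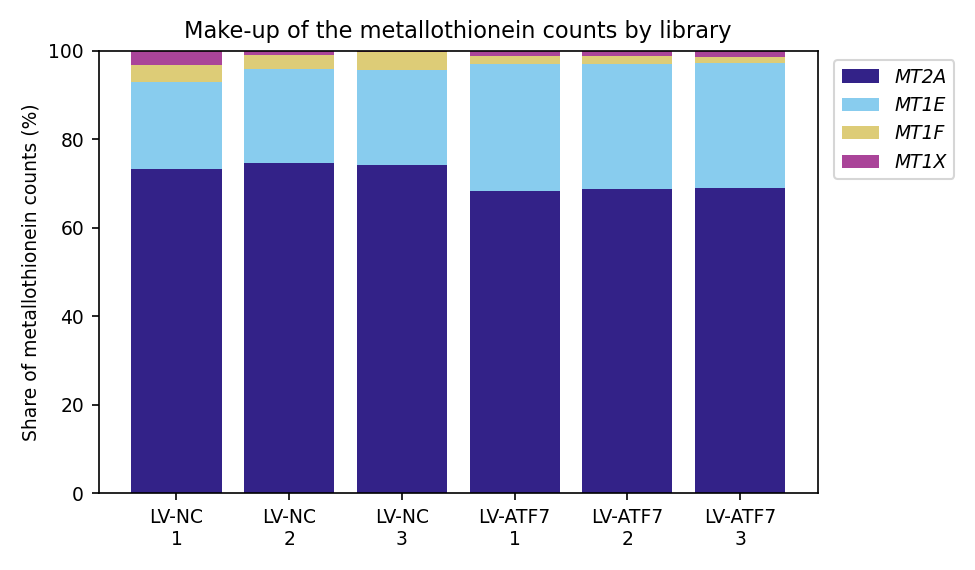
Share of the summed metallothionein counts (%) taken by each of the 4 genes, 1 bar per library, with the replicate number under each group name. *MT1E* takes 19.5% to 21.4% in the libraries labelled LV-NC and 28.1% to 28.6% in those labelled LV-*ATF7*.

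Counts and their shares also depend on the length of each mRNA, so levels of different genes were ordered per kilobase of exon. Per kilobase of all annotated exon bases, *MT2A* stood at 73.6 ± 15.0 CPM in the libraries labelled LV-NC and 374.3 ± 9.09 in those labelled LV-*ATF7*, and *MT1E* at 25.6 ± 6.14 and 190.4 ± 2.25. *MT1F* followed at 2.51 ± 0.49 and 6.12 ± 0.80, and *MT1X* at 0.94 ± 0.79 and 5.12 ± 0.59 (all SD, n = 3). The order *MT2A*, *MT1E* and then the other 2 was the same in both groups with no overlap between neighbours. *MT1F* and *MT1X* could not be ordered in the libraries labelled LV-*ATF7*, because the ratio of *MT1X* to *MT1F* there was 0.836 per kilobase of all exons and 1.20 per kilobase of the principal transcript. In the libraries labelled LV-NC, *MT1F* lay above *MT1X* without overlap per kilobase of all exons. Per kilobase of the principal transcript they overlapped in that group, at 5.66 to 8.31 CPM for *MT1F* and 1.03 to 7.14 for *MT1X*.

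Over the 6 libraries, log2 CPM of *MT2A* and *MT1E* moved together (Pearson's r = 0.9999 across both groups). The correlation was 0.971 between *MT2A* and *MT1F*, 0.809 between *MT2A* and *MT1X* and 0.720 between *MT1F* and *MT1X*. These are descriptions that rest mainly on the gap between the groups, and all 4 genes share the same libraries and depths.

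The genes on either side of the cluster were mixed in direction. Of 11 neighbours tested, 3 were higher, 3 were lower and 5 were not called, with a median log2 fold change of -0.13, against 34.7% higher and 32.9% lower among all genes. Upstream of *MT2A*, *NUDT21*, a subunit of the machinery that picks polyadenylation sites, rose from 12.3 ± 1.71 to 33.8 ± 2.91 CPM (log2 fold change 1.46, SE 0.14; adjusted p = 6.13e-05 by edgeR's quasi-likelihood test). Nearer to *MT2A*, *OGFOD1* (log2 fold change -0.30, edgeR adjusted p = 0.0636) and the ciliary gene *BBS2* (-0.13, edgeR adjusted p = 0.323) were not called, although 4 and 3 of the 14 alternative analyses called them lower. Downstream of *MT1X*, the nuclear pore gene *NUP93* was not called (0.27, edgeR adjusted p = 0.0952; called higher by 1 of the 14 alternatives), and *HERPUD1*, which acts in the degradation of misfolded endoplasmic reticulum proteins, fell from 277.1 ± 83.3 to 145.4 ± 9.97 CPM (log2 fold change -0.93, SE 0.19). The largest change among the neighbours was in *CPNE2*, a calcium-dependent membrane-binding protein, which rose from 10.6 ± 0.75 to 81.5 ± 2.18 CPM (log2 fold change 2.95, SE 0.10). *NUDT21*, *OGFOD1* and *BBS2* overlap in part, each with the next, and without a stated strand the reads of those stretches cannot be told apart.

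**Figure D3:**
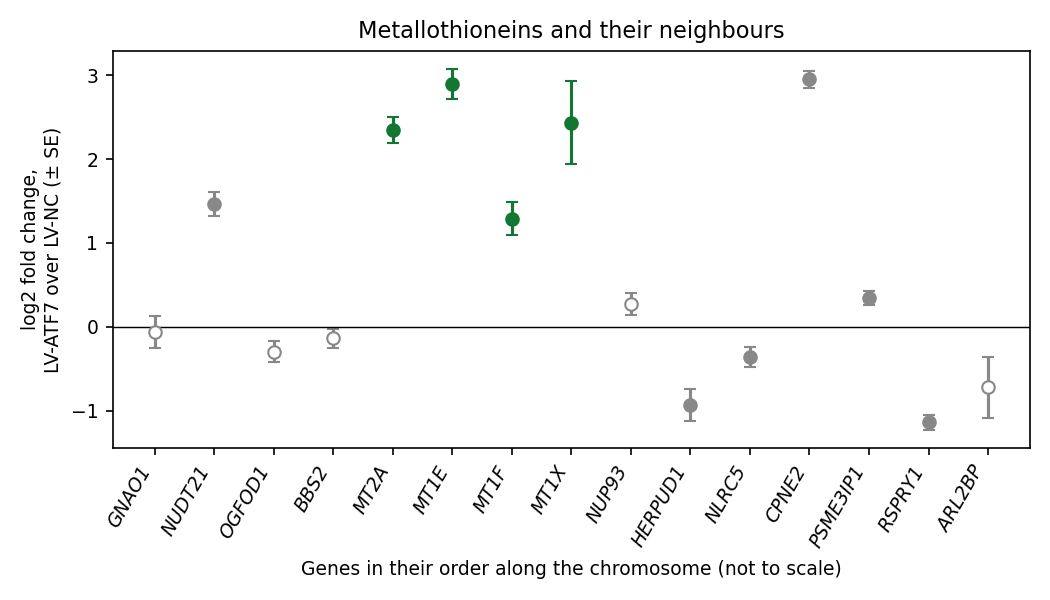
log2 fold change (LV-*ATF7* over LV-NC by the labels, ± SE, 3 libraries per group) of the metallothioneins (green) and 11 neighbouring genes (grey) in chromosomal order, which is not to scale. Filled points had an adjusted p under 0.05; the 4 metallothioneins lie between 1.29 and 2.90 and the listed genes nearest to them, *BBS2* and *NUP93*, at -0.13 and 0.27.

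The promoters of *MT2A* and *MT1X* are shown for the sites through which the family is known to be switched on. They are the 250 bases before the RefSeq start in GRCh38.p14, plus strand, chr16:56608334-56608583 for *MT2A* and chr16:56682220-56682469 for *MT1X*. The *MT2A* stretch also lies within exon bases of longer GENCODE transcripts of the same gene. The end of the *MT1X* stretch, from chr16:56682424 on, likewise lies within GENCODE exon bases of *MT1X*. Capitals mark matches to the core of the metal response element, TGCACNC or TGCGCNC on either strand.
MT2A: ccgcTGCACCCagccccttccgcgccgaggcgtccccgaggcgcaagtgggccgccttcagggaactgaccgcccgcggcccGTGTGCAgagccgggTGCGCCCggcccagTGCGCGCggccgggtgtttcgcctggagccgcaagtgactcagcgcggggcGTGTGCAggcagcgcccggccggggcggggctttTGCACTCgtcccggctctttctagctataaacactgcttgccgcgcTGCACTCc
MT1X: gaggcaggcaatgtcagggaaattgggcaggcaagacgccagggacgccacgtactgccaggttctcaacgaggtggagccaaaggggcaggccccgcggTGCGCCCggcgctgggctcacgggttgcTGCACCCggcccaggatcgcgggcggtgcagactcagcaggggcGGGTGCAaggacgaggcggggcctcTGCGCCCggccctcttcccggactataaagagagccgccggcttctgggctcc
*MT2A* held 7 matches and *MT1X* held 4. At least 1 match was found in 24.8% of 35116 RefSeq promoter stretches of this length, at least 4 in 0.370% and at least 7 in 0.0313%. The AP-1 site TGACTCA or TGAGTCA occurred once in *MT2A*, 104 bases before the start, and not in *MT1X*, against 4.20% of all promoters. The cyclic AMP response element TGACGTCA, the motif known for the ATF and CREB families, was in neither, against 1.65% of all promoters. Each promoter held 2 GC boxes (GGGCGG, in 42.6% of all promoters) and 1 TATAAA (6.80%). The GC box of *MT1X* nearer the start overlapped 1 metal response element match by 2 bases, and no other match overlapped another. A match is only a run of letters, and no binding was measured here.

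*MTF1*, the factor that binds the metal response elements, was lower in the libraries labelled LV-*ATF7*. Its level was 55.8 to 63.3 CPM in the libraries labelled LV-NC and 34.4 to 36.9 CPM in those labelled LV-*ATF7*, with means of 60.2 ± 3.93 and 35.4 ± 1.31 CPM (SD, n = 3; log2 fold change -0.77, SE 0.09; edgeR quasi-likelihood test, adjusted p = 1.99e-04). *SLC30A1*, the plasma membrane zinc exporter and another known MTF1 target, was not called, at 150.8 ± 17.1 and 163.0 ± 11.8 CPM with overlapping groups (log2 fold change 0.11, SE 0.11; edgeR quasi-likelihood test, adjusted p = 0.383). The 95% interval of its fold change was 0.908 to 1.29, and its sign turned with the scaling, to -0.05 by library size only.

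Across the MTF1, heat shock and oxidant response genes, 10 of 12 were lower, 1 was higher and 1 was not called, with a median log2 fold change of -1.18 (32.9% of all genes were lower). Heme oxygenase *HMOX1*, which breaks down heme and is induced by metals and oxidants, fell from 6.73 ± 2.63 to 0.85 ± 0.35 CPM (SD, n = 3; log2 fold change -2.98, SE 0.42). Thioredoxin reductase *TXNRD1* fell from 680.8 ± 182.4 to 199.0 ± 10.7 CPM (log2 fold change -1.77, SE 0.20). The only member of the list called higher was the heat shock gene *HSPA1A* (79.4 ± 25.3 to 158.6 ± 5.72 CPM, adjusted p = 0.00439 by edgeR's quasi-likelihood test). Its near-identical copy *HSPA1B* was not called (0.44, edgeR adjusted p = 0.0540), although its groups did not overlap. Reads of that pair may be split. Both were chosen for mention after their values were seen.

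For zinc transporters and the groups that follow, the shares of all genes to set beside the counts are 34.7% higher and 32.9% lower. Of 7 zinc exporters tested, 4 were lower, 3 were not called and none was higher (median log2 fold change -0.38), while 1 was called higher without LV-NC replicate 1. The largest falls were in *SLC30A4*, an exporter of intracellular vesicles, from 20.7 ± 11.1 to 6.44 ± 0.20 CPM (log2 fold change -1.69, SE 0.34), and in *SLC30A5* of the secretory pathway (-0.75, SE 0.11). Of 12 zinc importers, 4 were higher and 6 lower (median -0.04). *SLC39A2* rose from 0.68 ± 0.19 to 9.55 ± 0.38 CPM (log2 fold change 3.81, SE 0.23) and *SLC39A11* from 18.4 ± 2.43 to 40.8 ± 1.68 CPM (1.15, SE 0.12). *SLC39A10*, a plasma membrane importer, had a log2 fold change of 0.59 and was not called (edgeR adjusted p = 0.0620), but 5 of the 14 alternatives called it higher, DESeq2 and the replicate block among them (adjusted p from 0.00192 to 0.145 over all 14).

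Of 16 copper-handling genes, 7 were higher and 7 lower (median log2 fold change -0.33). The metalloreductases *STEAP3* and *STEAP4* rose most, from 13.6 ± 2.91 to 164.6 ± 17.0 CPM (log2 fold change 3.60, SE 0.17) and from 1.10 ± 0.38 to 10.5 ± 1.44 CPM (3.25, SE 0.26). The copper-exporting pump *ATP7A* fell (-1.10, SE 0.12), as did the copper chaperone *ATOX1* (-0.60, SE 0.16) and the copper and zinc superoxide dismutase *SOD1* (-0.89, SE 0.20). The related copper pump *ATP7B*, named after its values were seen, went the other way, from 5.93 ± 2.89 to 18.7 ± 2.62 CPM (1.65, SE 0.31). The copper importer *SLC31A1* was not called (-0.27, edgeR adjusted p = 0.0584), but 6 of the 14 alternatives, DESeq2 among them, called it lower (adjusted p from 0.0156 to 0.155 over all 14). The call of *ATOX1* was lost without LV-*ATF7* replicate 1 (edgeR adjusted p = 0.0503).

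Glucocorticoids also induce metallothioneins. The glucocorticoid group held known targets together with the receptor genes *NR3C1* and *NR3C2* and the enzyme gene *HSD11B2*. Of its 12 genes, 5 were higher and 4 lower (median log2 fold change -0.12), shares close to those of all genes. *NR3C1*, the glucocorticoid receptor, was not called (-0.25, edgeR adjusted p = 0.0546), but 5 of the 14 alternatives, DESeq2 among them, called it lower (adjusted p from 0.0121 to 0.144 over all 14). *FKBP5*, a chaperone of the receptor and a target of it, fell from 62.2 ± 18.2 to 15.1 ± 1.25 CPM (-2.04, SE 0.22). *TSC22D3*, which encodes the glucocorticoid-induced leucine zipper, rose from 108.4 ± 14.7 to 273.8 ± 16.0 CPM (1.34, SE 0.12), and the transcription factor gene *CEBPD* from 30.3 ± 6.27 to 429.2 ± 33.9 CPM (3.82, SE 0.16).

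**Figure D4:**
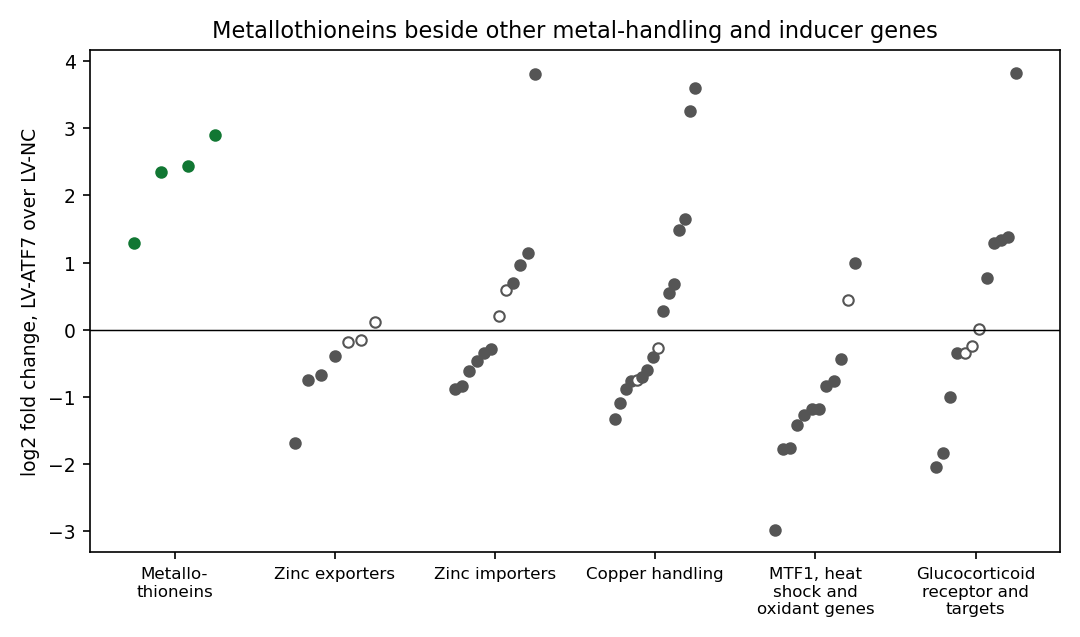
log2 fold change (LV-*ATF7* over LV-NC by the labels, 3 libraries per group) of the 4 metallothioneins (green) and of genes of 5 related groups (grey), sorted within each group, 1 point per gene, filled where the adjusted p was under 0.05. The metallothioneins all lie above 0, while 10 of 12 genes of the MTF1, heat shock and oxidant group were lower.

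The genes whose log2 CPM over the 6 libraries was most like the mean of *MT2A*, *MT1E* and *MT1X* were *LHPP* (Pearson's r = 0.999), *SDHAF1*, *SNCAIP*, *IL15RA* and *ZNF48*. *MT1F* was not in this mean. *MT1X* weighed as much in it as the others, although it deviated the opposite way in LV-NC replicate 1. The log2 fold changes of the 5 genes ranged from 0.36 (*IL15RA*) to 7.16 (*SNCAIP*). Of the 11172 genes that averaged 50 or more counts, 19.5% reached an r of 0.95, so likeness of this kind was common where most genes differed between the groups.

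Gene length gives a further context for these short mRNAs. Genes with under 1000 exon bases had a median log2 fold change of 0.23 (125 genes), and those from 1000 to 2000, the range that holds all 4 members, had one of 0.14 (862 genes). In these groups 40.8% and 37.1% of genes were called higher, and 28.8% and 25.1% had a log2 fold change of at least 1. The part of gene length in the results was not tested.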

How the data were processed

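RNA-seq of 6 HaCaT libraries, 3 labelled LV-NC and 3 labelled LV-*ATF7*, was used. The authors deposited raw counts per gene and FPKM values. The build was GRCh38 per the submitters' processing notes. The aligner, counting program, annotation and strandedness are not given in the sources used here. The authors' own comparison (fold change as a ratio, log2 fold change, p-value and adjusted p-value, all deposited) was not used. The study also measured ATF7 in infected HaCaT cells by qRT-PCR and Western blot, which were not analysed here.

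Tests used edgeR 4.0.16 in R 4.3.3 with TMM scaling of the counts (filterByExpr, quasi-likelihood test, no covariates, Benjamini-Hochberg adjustment over 12462 genes, threshold 0.05), and 37 genes failed the filter. CPM is TMM-scaled. The standard error is the log2 fold change divided by the square root of F, and 95% intervals of a fold use the t distribution with the test's degrees of freedom. Positions came from GENCODE release 29 and promoters from RefSeq GRCh38.p14, where 2 of the 4 members had an entry. Among the members, libraries of 16686472 to 20562768 counts leave counting error small except for *MT1X* and *MT1F*. Some other named genes had few counts in a group, so the size of their change is less certain. In the libraries labelled LV-NC these were *SNCAIP* (4 to 13 counts), *SLC39A2* (9 to 15) and *STEAP4* (13 to 25). In those labelled LV-*ATF7*, *HMOX1* had 10 to 22. The method was also run on simulated counts in which few genes changed, evenly up and down. Most genes differed in these data, so that run does not test the scaling used here.

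The members, lists and named genes were chosen with earlier results of these data known. Named were all members, fixed regulators, transporters and flanking genes, and the 2 largest called changes per list without overlap between groups (averaging 50 or more counts). The 5 genes most like the mean of *MT2A*, *MT1E* and *MT1X* were also named. A neighbouring gene of the cluster is not reported here. The alternatives were upper quartile scaling, scaling by library size only, DESeq2 1.42.0, limma 3.58.1 (voom with sample weights, or on log2(FPKM + 1)), a filter of 10 counts per library or none, a replicate block and leaving out each library. Scripts used Python 3.11.15.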

Additional observations from a re-analysis of the deposited data

How the results depend on the processing

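All 4 metallothioneins were called higher in the libraries labelled LV-*ATF7* under each of the 14 alternatives that tested them. With at least 10 counts in every library *MT1X* was not tested, which left 3. Calls were common in every setting, with 7290 to 10391 genes called in either direction over the alternatives. Of all genes, 34.7% were called higher in the fit reported above and 39.9% without LV-NC replicate 1. The log2 fold change ran from 2.17 to 2.41 for *MT2A*, 2.69 to 2.97 for *MT1E* and 0.82 to 1.41 for *MT1F*, with largest adjusted p of 2.89e-04, 2.44e-04 and 0.00420 by edgeR, DESeq2 or limma. For *MT1X* it ran from 1.28 (limma on log2(FPKM + 1), where the added 1 shrinks low genes) to 3.43 (limma voom with sample weights), with a largest adjusted p of 0.0204 by the same tools. *SLC30A1* turned to -0.053 by library size only and to -0.046 by limma on log2(FPKM + 1), and was called at 0.21 by voom with sample weights and 0.19 without LV-NC replicate 1. Calls also changed for *SLC39A10*, *SLC31A1*, *NR3C1*, *OGFOD1*, *BBS2*, *NUP93*, *ATOX1* and *IL15RA*, each in 1 to 6 of the 14 alternatives and with no change of sign. The cause was not tested. Scaling by library size only moved the all-gene median by -0.16 on the log2 scale and the share of calls that were higher from 51.3% to 42.4%. With the replicate block the log2 fold changes were 2.37, 2.92, 1.29 and 2.61 for *MT2A*, *MT1E*, *MT1F* and *MT1X*. Same-numbered libraries did not deviate together (correlations 0.058, -0.021 and 0.065). These values gave no sign that the numbers pair the samples, but with 3 libraries per group they cannot exclude it. List counts without LV-NC replicate 1, chosen after seeing the data, moved by at most 2 genes, and for the oxidant group 2 were then called higher in place of 1. Among the members depth limits *MT1X* and *MT1F*, and a metallothionein without a row could not be measured.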
